A study of Mus musculus with 14 samples.

Results

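The 45 genes described here encode lysosomal enzymes, lysosomal membrane proteins and subunits of the V-ATPase, the pump that acidifies the lysosome. They were taken by name, by a rule that uses no measured value, and each was found once among the 23174 gene loci of the deposited expression table. They comprise 10 cathepsins, 11 other hydrolases and their activators, 8 membrane proteins, 8 subunits of the V1 part of the pump, 7 genes of its V0 part and accessory subunits, and the regulator Tfeb. The study asked whether Zfp281, a zinc finger transcription factor, holds mouse embryonic stem cells (ESCs) back from becoming extraembryonic endoderm (XEN) stem cells. PolyA RNA was sequenced from 14 libraries, and values are FPKM, that is, fragments scaled to transcript length and to library size. Cells of 4 lines were each sampled once at 3 stages, and the established lines XENB1 and XEN5, both labelled WT, gave 1 library each.

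The 4 lines are 3WT (WT), 3.34Null (Zfp281KO), 2.6Null (Zfp281KO, with 2.26-/- in its cell line field) and 3.34Null-Rescue, which is 3.34Null with Zfp281 put back. Loci are given on mm9, the build named in the submitters' processing notes: Ctsh (XLOC_021227) spans chr9:89949105-89970933, Lamp1 (XLOC_019705) chr8:13159135-13175338, Ctsl (XLOC_005545) chr13:64464522-64471614, Cd63 (XLOC_001793) chr10:128345975-128349874 and Tfeb (XLOC_008576) chr17:47873986-47929365. All 4 lines have the strain background 129S1/SVImJ, as does XEN5, and XENB1 is labelled 129S1. ESCs were grown without feeders in serum and LIF. At cXENp1, cells moved to XEN medium had spent 48 hours with activin A at 10 ng/mL and all-trans retinoic acid at 0.01 µM. At cXENp3, they had since passed over iMEF feeders and back to gelatin. The XEN lines were grown without feeders in conditioned XEN medium, so medium differs between ESCs and all later stages in every line. 3WT and 3.34Null-Rescue are called the Zfp281-present lines below, and 3.34Null and 2.6Null the Zfp281-null lines. WT and rescue are 1 line each, the rescue derives from 1 of the null lines, and no label names separate cultures, so p-values measure only the spread between these libraries. In bulk RNA, fewer cells of a type and less RNA per cell cannot be told apart.

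Lysosomes break down proteins, glycans, lipids and nucleic acids with acid hydrolases, most of which work best at low pH. The V-ATPase couples ATP hydrolysis by its cytosolic V1 part to proton transport through its membrane V0 part. Many of these genes carry a palindromic element in their promoters that is bound by TFEB and its relatives, helix-loop-helix factors that are held in the cytoplasm when the kinase mTOR is active. The extraembryonic endoderm of the rodent yolk sac takes up maternal macromolecules and degrades them in a large endocytic and lysosomal system.

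The promoter sequences below are those of every member in which the core of this element was found. Lamp1, which held only a shorter part of it, is shown as well. Windows of 300 bases, from 250 before to 50 after each gene start, were taken from RefSeq (build GRCm38.p6) and matched 37 of the 45 members. Ctsb, Ctsh, Atp6v1b2, Atp6v1c1, Atp6v1g1, Atp6v1h, Npc1 and Laptm4b had no entry. The letters TCACGTGA, which read the same on both strands, occurred in the windows of 6 of the 37 members (16.2%) and of 1.12% of the 27025 genes in the table. The shorter CACGTG, which lies within it, occurred in 12 of 37 (32.4%) against 8.09% of genes. A match is a description of letters and not a bound site. Each line gives the gene and the stretch around the match, 5′ to 3′ on the gene's strand, with TCACGTGA in capitals (CACGTG for Lamp1):
Ctsa (chr2:164833734-164833792, plus strand): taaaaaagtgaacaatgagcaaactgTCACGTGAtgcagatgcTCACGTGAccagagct
Ctsd (chr7:142387893-142387952, minus strand): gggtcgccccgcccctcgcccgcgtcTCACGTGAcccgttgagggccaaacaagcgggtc
Mcoln1 (chr8:3500447-3500506, plus strand): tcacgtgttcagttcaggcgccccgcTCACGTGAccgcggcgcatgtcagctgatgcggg
Atp6v0d1 (chr8:105566045-105566094, minus strand): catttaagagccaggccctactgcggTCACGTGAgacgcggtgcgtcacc
Atp6v0e (chr17:26676372-26676415, plus strand): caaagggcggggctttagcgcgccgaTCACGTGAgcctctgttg
Atp6v1a (chr16:44139358-44139417, minus strand): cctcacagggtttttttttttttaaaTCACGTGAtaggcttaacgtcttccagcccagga
Lamp1 (chr8:13159071-13159180, plus strand): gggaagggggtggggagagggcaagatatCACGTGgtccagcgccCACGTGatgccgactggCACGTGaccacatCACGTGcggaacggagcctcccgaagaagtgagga

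Ctsa held 2 copies of TCACGTGA. Lamp1 held none but had 4 copies of CACGTG within the stretch shown, beginning 61, 45, 28 and 15 bases before the gene start. Matches to the longer motif fell in cathepsins, a membrane channel and both parts of the proton pump, and in none of the 11 matched hydrolases and activators outside the cathepsins.

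Between 14972 and 16831 loci were above 0 per library, and read depth is unknown because the table holds no counts. Zfp281 itself was at 25.1 to 38.6 FPKM in the Zfp281-present lines, 1.29 to 3.96 in 3.34Null, 0 to 0.559 in 2.6Null, and 10.6 and 12.5 in the XEN lines. The summed level of 7 XEN markers (Gata4, Gata6, Sox17, Sox7, Foxa2, Dab2 and Pdgfra) was 0.996 to 46.7 FPKM in ESCs and 35.7 to 370.0 at cXENp1, with 2.6Null highest both times. At cXENp3 it was 5.08 and 13.3 in the present lines, 928 and 1143 in the null lines, and 1008 and 1305 in the XEN lines. The sum of 5 ESC markers at cXENp3 was 2654 in 3WT, 1631 in 3.34Null-Rescue, 328 in 3.34Null and 65.9 in 2.6Null. So the cXENp3 groups differ in XEN and ESC markers along with the lysosomal genes, and the part that cell identity plays in the lysosomal values cannot be told apart from Zfp281 state. In the sample descriptions, ESCs of 3WT, 3.34Null and 3.34Null-Rescue have codes beginning with JH and the other 11 libraries codes beginning with XH; what these mark is not given in the sources used here.

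Summed over the 45 members, the level was nearly flat in the Zfp281-present lines and several times higher in the null lines at cXENp3 than before. It came to 2419 FPKM in 3WT, 2233 in 3.34Null-Rescue, 3079 in 3.34Null and 3836 in 2.6Null as ESCs. At cXENp1 it was 2134, 2184, 2241 and 4200.0 in the same order, and at cXENp3 it was 2291, 2326, 7602 and 13464. XENB1 reached 8661 and XEN5 9211. As a share of each library's FPKM sum, the members took 0.311% to 0.565% in ESCs, 0.358% and 0.437% in the present lines at cXENp3, 1.35% in 3.34Null and 2.61% in 2.6Null, and 1.43% and 1.56% in the XEN lines. The Ctsl value of 3957 FPKM made up most of the cathepsin sum of 5842 in 2.6Null at cXENp3 and is also part of the sum of 13464 over all members. The V1 sum had a narrower range than the rest, lying between 445 and 927 FPKM in all 14 libraries. At cXENp3 it too was higher in the null lines, at 772 FPKM in 3.34Null and 873 in 2.6Null against 663 in 3WT and 548 in 3.34Null-Rescue.

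**Figure D1:**
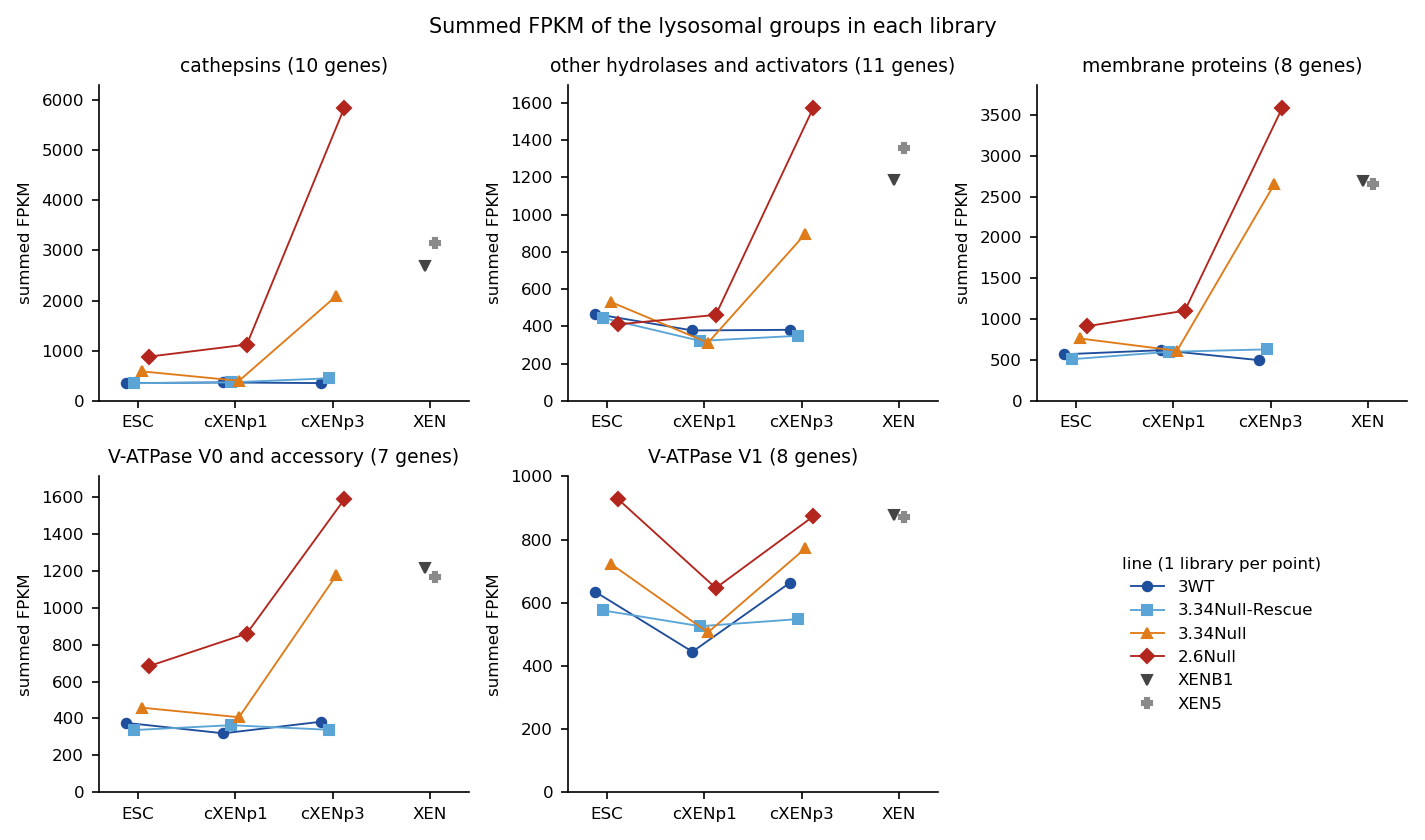
Summed FPKM (linear axes from 0) of the 5 gene groups in each library, by stage, with 1 point per library and lines joining the stages of a cell line. In all 5 groups both Zfp281-null lines lie above the present lines at cXENp3. In the 4 groups other than V1, 2.6Null lies above both XEN lines. For the cathepsins (2096 FPKM) and the other hydrolases (898 FPKM), 3.34Null lies below them. The V1 sum stays between 445 and 927 FPKM. At cXENp3 it is 663 FPKM in 3WT, 548 in 3.34Null-Rescue, 772 in 3.34Null and 873 in 2.6Null.

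Comparison of the established XEN lines with ESCs of the 4 lines asked how the lysosomal genes differ between the start and the endpoint of the conversion. All 8 cathepsins that could be tested, 8 of 11 other hydrolases and activators and 5 of 7 V0 and accessory genes were called higher in the XEN lines, and none of the V1 subunits was. Of the 45 members, all of which passed the filter on low values, 29 were called higher and 1 lower at a limma adjusted p under 0.05, where 22.2% of all 12372 genes tested were called higher and 19.7% lower. The median log2 difference was 1.31 over the members and -0.02 over all genes. Ctsk and Ctss passed that filter only through the XEN libraries where they are high, so their difference is a description with no test, and 27 were called higher without them. Both XEN libraries have XH codes and most of the ESC libraries JH codes. The code is thus largely confounded with this comparison, and these counts cannot separate them. A count of members called with the code in the model is not given here.

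Of the cathepsins, Ctsk and Ctss are described by their values and the other 8 were called higher. Ctsh, a cysteine protease with aminopeptidase activity, was at 1.43 FPKM in 3WT, 1.22 in 3.34Null-Rescue, 1.80 in 3.34Null and 2.49 in 2.6Null as ESCs, and at 261 FPKM in XENB1 and 302 in XEN5. The groups lie far apart, and the difference in mean log2(FPKM + 1), called the log2 difference from here on, was 6.71 ± 0.26, adjusted p = 6.91e-06. Every ± on such a difference is its standard error (SE), every adjusted p comes from limma, and each library is a single value. Ctss, the cathepsin of antigen-presenting cells, was listed at 0 to 0.0797 FPKM in ESCs and at 67.2 FPKM in XENB1 and 28.1 in XEN5. Ctsk, the collagen-degrading cathepsin of osteoclasts, was listed at 0 to 0.0806 FPKM in ESCs and at 25.1 FPKM in XENB1 and 21.5 in XEN5. Both genes, which lie 17423 bp apart on chromosome 3, were essentially unread in ESCs. The summed level of 8 macrophage markers moved with Ctss: at most 0.463 FPKM in ESCs, with 5 to 7 of the 8 at 0, against 88.2 in XENB1 and 32.9 in XEN5, where Tyrobp alone gave 55.7 and 17.3. The sum of 8 fibroblast markers moved as well, from 1.65 to 16.8 FPKM in ESCs to 624 in XENB1 and 544 in XEN5. The part of either marker list in the Ctsk and Ctss values was not tested. The other 7 cathepsins, Ctsa, Ctsb, Ctsc, Ctsd, Ctsf, Ctsl and Ctsz, were at 3.01 to 6.14 times their ESC mean.

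Among the other hydrolases and activators, 8 of 11 were called higher. Lipa, the acid lipase that frees cholesterol from lipoprotein esters, stood at 4.33 FPKM in 3WT, 4.01 in 3.34Null-Rescue, 3.66 in 3.34Null and 1.3 in 2.6Null among ESCs and at 53.2 FPKM in XENB1 and 58.8 in XEN5. Every XEN value exceeded every ESC value by more than 10-fold, and the log2 difference was 3.79 ± 0.37, adjusted p = 0.000224. The others called were the glycogen-degrading Gaa, the lipid-handling Npc2, Psap and Ppt1, the granulin precursor Grn, the peptidase Tpp1 and the sialidase Neu1, at 1.88 to 6.72 times the ESC mean. The remaining 3, all glycosidases, did not pass. Their ratios to the ESC mean were 1.18 for Gusb (β-glucuronidase), 0.641 for Hexa (β-hexosaminidase α subunit) and 0.774 for Glb1 (β-galactosidase), and each had overlapping groups. On the log2 scale Gusb was at -0.04, the other sign from its ratio of means.

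Of the 8 membrane proteins, 6 were higher and 1 lower. Lamp1, the most abundant glycoprotein of the lysosomal membrane, was at 214 FPKM in 3WT, 174 in 3.34Null-Rescue, 380.2 in 3.34Null and 496 in 2.6Null as ESCs and at 902 FPKM in XENB1 and 868 in XEN5, with a log2 difference of 1.61 ± 0.41, adjusted p = 0.0155. Both XEN values lay above all ESC values, but the null ESC lines were nearer to them than the present ones. The Lamp1 call was lost without XENB1 (adjusted p = 0.0957), without XEN5 (adjusted p = 0.0889) and where the JH or XH code entered the model, when the log2 difference was 0.83 (adjusted p = 0.175). Cd63, a tetraspanin of late endosomes, was at 74.2 to 191 FPKM in ESCs and at 1310.3 and 1348 in the XEN lines. Mcoln1, the calcium channel that activates TFEB through calcineurin, showed 17.4 FPKM in 3WT, 17.4 in 3.34Null-Rescue, 19.8 in 3.34Null and 22.1 in 2.6Null among ESCs against 41 FPKM in XENB1 and 40.5 in XEN5 (log2 difference 1.05 ± 0.21, adjusted p = 0.00511). That call rested on both XEN libraries, with adjusted p = 0.050 without XENB1 and 0.0502 without XEN5. Laptm4b, a membrane protein that several tumours overexpress, ran the other way, at 56.2 to 86.9 FPKM in ESCs and 10.5 and 15.6 in the XEN lines (log2 difference -2.41 ± 0.26, adjusted p = 0.000345). Lamp2, the sterol transporter Npc1 and Laptm4a were also called higher, whereas Cd68, at 7.14 to 22.4 FPKM in ESCs and 18.2 and 8.73 in the XEN lines, overlapped.

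The 2 parts of the proton pump differed from each other. None of the 8 V1 genes was called in this limma comparison, and 1 had an unadjusted p under 0.05. Atp6v1b2, a nucleotide-binding B subunit, ranged over 79 to 135 FPKM across all 14 libraries, and the V1 ratios of XEN to ESC mean ran from 0.941 (Atp6v1a, the catalytic A subunit) to 1.76 (Atp6v1e1, a stalk subunit). In V0, 5 of 7 were called higher. Atp6v0a1, the a subunit that helps target the pump to its membrane, was at 6.84 to 15.1 FPKM in ESCs and 61 and 123 in the XEN lines, and the accessory subunit Atp6ap1 at 22.4 to 36.6 and 146 and 192. The proteolipid ring genes Atp6v0b and Atp6v0c, and Atp6v0e, were called too. Atp6v0d1 and Atp6ap2 were higher in both XEN libraries than in any ESC library but missed the threshold.

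Tfeb was at 14.9 FPKM in 3WT, 10.4 in 3.34Null-Rescue, 9.39 in 3.34Null and 14.8 in 2.6Null as ESCs and at 12.4 FPKM in XENB1 and 11.1 in XEN5. The XEN values lay within the ESC range, and the log2 difference was -0.04 ± 0.27, adjusted p = 0.914. Over the whole comparison, fewer members were called without XEN5 or without XENB1, each of which leaves a single XEN library. The share of all genes called then is not given here.

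After 48 hours of differentiation, few of the members were called against ESCs. At cXENp1 against ESC, with the line as a block, 1 member rose and 8 fell, where 14.7% of 13191 genes rose and 13.8% fell. The median was -0.06 over the members and 0.00 over all genes. Summed over the members, the level went from 2419 to 2134 FPKM in 3WT and from 2233 to 2184 in 3.34Null-Rescue. Of the null lines, 3.34Null went down, from 3079 to 2241, and 2.6Null went up, from 3836 to 4200.0. A member that was not called is not thereby shown to be level. The members that fell were 4 V1 subunits, 2 glycosidases, Cd68 and Tfeb.

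Tfeb fell in all 4 lines, to 1.49 FPKM in 3WT, 0.6 in 3.34Null-Rescue, 1.48 in 3.34Null and 3.37 in 2.6Null (log2 difference -2.36 ± 0.31, adjusted p = 0.00114). All cXENp1 values lay well below the lowest ESC value, 9.39 FPKM. Cd68, a sialomucin abundant in macrophages, was at 7.14 to 22.4 FPKM in ESCs and 1.11 to 4.65 at cXENp1 (log2 difference -2.02 ± 0.36, adjusted p = 0.00455). Macrophage markers summed to no more than 3.48 FPKM at cXENp1 and 0.463 in ESCs, and their part in the Cd68 values was not tested. Hexa was at 55.7 FPKM in 3WT, 28.9 in 3.34Null-Rescue, 67.2 in 3.34Null and 90.7 in 2.6Null as ESCs and at 18.5 FPKM in 3WT, 11.9 in 3.34Null-Rescue, 14.3 in 3.34Null and 30.0 in 2.6Null at cXENp1 (log2 difference -1.62 ± 0.24, adjusted p = 0.00202). Each line showed a decline, and 2.6Null stayed the highest. Glb1 was at 49.3 to 86.5 FPKM in ESCs and 12 to 41.6 at cXENp1 (log2 difference -1.63 ± 0.31, adjusted p = 0.00605), with only a small decline in 2.6Null, from 49.9 to 41.6.

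Within V1, Atp6v1a, Atp6v1c1, Atp6v1d and Atp6v1h fell. Atp6v1d, a central rotor subunit, was at 43.2 FPKM in 3WT, 38.9 in 3.34Null-Rescue, 66.6 in 3.34Null and 83 in 2.6Null as ESCs and at 27.2 FPKM in 3WT, 31.3 in 3.34Null-Rescue, 32.5 in 3.34Null and 43 in 2.6Null at cXENp1, lower in every line. No V0 gene and no cathepsin was called. Lipa was the only member to rise, to 19.2 FPKM in 3WT, 13 in 3.34Null-Rescue, 9.29 in 3.34Null and 11.6 in 2.6Null (log2 difference 1.75 ± 0.48, adjusted p = 0.024). Ctsh (1.02 ± 0.94, adjusted p = 0.434), Lamp1 (0.04 ± 0.41, adjusted p = 0.957) and Mcoln1 (-0.11 ± 0.27, adjusted p = 0.789) were not called.

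For 3 lines the ESC library has a JH code and the cXENp1 library an XH code, which cannot be told apart from stage there. In 2.6Null both have XH, and in that line Tfeb went from 14.8 to 3.37 FPKM, Hexa from 90.7 to 30.0, Cd68 from 15.3 to 4.65 and Lipa from 1.3 to 11.6. With the code in the model, no member was called, and 11 had an unadjusted p under 0.05. Tfeb then had a log2 difference of -2.48 (adjusted p = 0.0571) and Glb1 one of -0.39 (adjusted p = 0.366). Without 3.34Null, 3 members were called, and the share of all genes called then is not given here. The Lipa and Glb1 calls were lost in that fit (adjusted p = 0.0627 and 0.0576). Lipa was also lost without 3.34Null-Rescue (adjusted p = 0.0778).

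**Figure D2:**
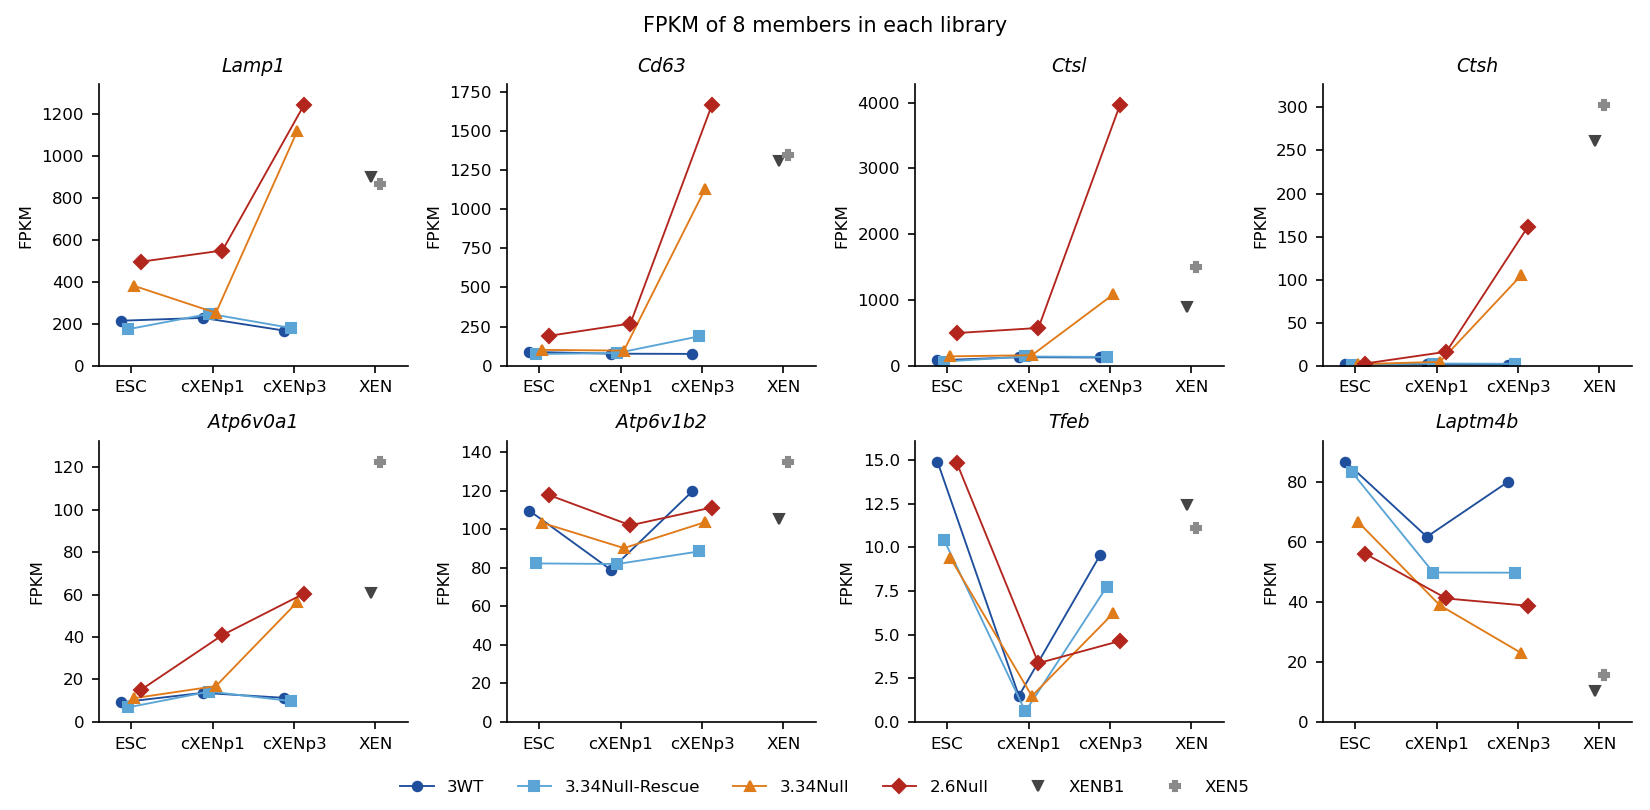
FPKM (linear axes from 0) of 8 members in each library, by stage; points are single libraries and lines join the stages of a cell line. Lamp1, Cd63, Ctsl, Ctsh and Atp6v0a1 separate the 2 Zfp281-null lines from the others at cXENp3, Atp6v1b2 stays between 79.0 and 135 FPKM, Tfeb dips at cXENp1 in every line, and Laptm4b is lower at cXENp1 than in ESCs in every line and back at 80.2 FPKM at cXENp3 in 3WT.

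Loss of Zfp281 was first examined before and early in differentiation. In limma, no member was called between null and present lines as ESCs, where 1.05% of genes were called higher and 0.917% lower, nor at cXENp1, where 0.364% and 0.121% were. At an unadjusted p under 0.05, 14 members passed as ESCs and 9 at cXENp1, against 2762 and 1486 of all 13191 genes. The median log2 difference of the members was 0.43 as ESCs and 0.44 at cXENp1, and that of all genes -0.01 and 0.04. Both null libraries exceeded both present libraries for 29 of 45 members as ESCs, against 25.3% of all genes, and for 21 at cXENp1, against 27.2%.

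As ESCs, the null libraries were higher for much of V1 and for Lamp1. Of the ESC libraries only that of 2.6Null has an XH code, so the code cannot be told apart from that line here. Lamp1 showed 214 FPKM in 3WT, 174 in 3.34Null-Rescue, 380.2 in 3.34Null and 496 in 2.6Null, without overlap, and its log2 difference was 1.17 ± 0.32, adjusted p = 0.085. Atp6v1a was at 42.6 FPKM in 3WT, 37.2 in 3.34Null-Rescue, 82.5 in 3.34Null and 89.8 in 2.6Null, and Atp6v1h at 57.5 FPKM in 3WT, 51.1 in 3.34Null-Rescue, 97 in 3.34Null and 86.3 in 2.6Null. Ctsl, the broad endosomal cysteine protease, was at 81.3 FPKM in 3WT, 62.3 in 3.34Null-Rescue, 142 in 3.34Null and 496 in 2.6Null, and its excess lay mainly in 2.6Null. Ctsh (0.43 ± 0.49, adjusted p = 0.686), Mcoln1 (0.25 ± 0.36, adjusted p = 0.767) and Tfeb (-0.07 ± 0.36, adjusted p = 0.964) were not called.

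At cXENp1 the highest values lay mostly in 2.6Null. That line was the highest of the 4 for 37 of 45 members, against 34.4% of all genes, whereas as ESCs it was for 26 (29.3%). Ctsh was at 1.79 FPKM in 3WT, 2.48 in 3.34Null-Rescue, 4.39 in 3.34Null and 16.2 in 2.6Null (log2 difference 1.62 ± 0.49, adjusted p = 0.213), and Atp6v0c, the proteolipid of the V0 ring, at 38.9 FPKM in 3WT, 37.6 in 3.34Null-Rescue, 71.9 in 3.34Null and 235 in 2.6Null. For Lamp1, 3.34Null at 252 FPKM was level with the present lines at 228 and 248, while 2.6Null was at 549 (log2 difference 0.65 ± 0.32, adjusted p = 0.505). Mcoln1 (0.62 ± 0.36, adjusted p = 0.584) and Tfeb (0.72 ± 0.36, adjusted p = 0.509) were not called. Leaving out 3.34Null, with 1 null library left, gave 13 called members as ESCs, where 15.5% of all genes were then called, and 15 at cXENp1, where 4.97% were, Lamp1 among them both times (adjusted p = 0.0152 and 0.0340), and Ctsh at cXENp1 (adjusted p = 0.0206). XEN markers moved with 2.6Null: their sum there was 46.7 FPKM as ESCs and 370.0 at cXENp1, against at most 5.69 and 47.9 in the other 3 lines. Their part in these values was not tested.

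At cXENp3 the lysosomal genes separated the null from the present lines. Of the 45 members, 34 were called higher in the null lines and 1 lower, where 22.9% of genes were called higher and 19% lower. Ctsk and Ctss met the filter only through the null cXENp3 libraries and are given as a description, so 32 were called higher without them. The median log2 difference was 1.67 over the members and 0.01 over all genes. Both null libraries exceeded both present ones for 39 members, against 37.2% of all genes. Counted by group, 7 of the 8 other cathepsins, 9 of 11 hydrolases and activators, 6 of 8 membrane proteins, 3 of 8 V1 and all 7 V0 and accessory genes were called higher.

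The cathepsins had the steepest differences. Ctsh was at 0.864 FPKM in 3WT, 2.19 in 3.34Null-Rescue, 105 in 3.34Null and 161 in 2.6Null, with a log2 difference of 5.75 ± 0.49, adjusted p = 8.37e-05. Against its ESC values of 1.43 and 1.22 FPKM, 3WT was lower and 3.34Null-Rescue higher, and the null and present groups lie far apart. Ctsl was at 124 FPKM in 3WT, 132 in 3.34Null-Rescue, 1083 in 3.34Null and 3957 in 2.6Null (log2 difference 4.0 ± 0.74, adjusted p = 0.00262), so the null lines differed from each other several-fold as well. Without 3WT, the Ctsl call was lost (adjusted p = 0.0656). Ctsa, the protective protein that stabilises Neu1 and Glb1, was at 18.1 FPKM in 3WT, 17.6 in 3.34Null-Rescue, 95 in 3.34Null and 196 in 2.6Null (log2 difference 2.87 ± 0.42, adjusted p = 0.000887). Its locus overlaps those of Neurl2 and Pltp, as that of Ctsb overlaps Fdft1 and that of Ctsz overlaps Nelfcd, so the values of these cathepsins could hold fragments of their neighbours.

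Ctsb, another broad cysteine protease, was at 29.8 and 44.2 FPKM in the present and 225 and 324 in the null lines, and the aspartic protease Ctsd at 110.5 and 178 against 396 and 868. Ctsf had 11 and 10.9 against 28 and 69.7 FPKM and Ctsz 56.3 and 57.7 against 141 and 237. All 4 were called, with every null value above every present one. Ctsk was at 0.546 FPKM in 3WT, 3.23 in 3.34Null-Rescue, 9.74 in 3.34Null and 16 in 2.6Null and Ctss at 0.65 FPKM in 3WT, 1.21 in 3.34Null-Rescue, 5.77 in 3.34Null and 4.9 in 2.6Null, and neither reached 1 FPKM in any course library before cXENp3. In the rescue library, which had the higher of the present values for both, 8 fibroblast markers summed to 1247 FPKM, against 33.4 in 3WT, 272 in 3.34Null and 347 in 2.6Null, and macrophage markers summed to 1.93 in 3WT, 2.89 in 3.34Null-Rescue, 8.32 in 3.34Null and 12.7 in 2.6Null. The part of either list in Ctsk and Ctss was not tested. Ctsc, which activates serine proteases, was the cathepsin not called, at 3.01 FPKM in 3WT, 4.32 in 3.34Null-Rescue, 6.68 in 3.34Null and 8.14 in 2.6Null.

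Among the hydrolases and activators, the largest ratio of null to present mean was 7.49, for Tpp1, the peptidase lost in a childhood ceroid lipofuscinosis, at 16.2 and 15.7 FPKM in the present and 89.3 and 149 in the null lines. Next stood Neu1 at 6.66, Gaa at 6.32 and Ppt1, which removes palmitate from proteins, at 5.95. Grn, Psap, Lipa, Gusb and Npc2 followed at 3.95, 3.30, 3.28, 2.34 and 1.93 times. Gaa illustrates the pattern, with 17.9 FPKM in 3WT, 20.7 in 3.34Null-Rescue, 86 in 3.34Null and 158 in 2.6Null. Hexa overlapped between groups, at 33.9 FPKM in 3WT, 25.7 in 3.34Null-Rescue, 17.8 in 3.34Null and 49.1 in 2.6Null, and Glb1 did not overlap but missed the threshold, at 26.9 FPKM in 3WT, 20.9 in 3.34Null-Rescue, 40.1 in 3.34Null and 65.6 in 2.6Null. The 2 enzymes not called were those that had fallen at cXENp1.

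For the membrane proteins, Cd63 was at 75.2 FPKM in 3WT, 187 in 3.34Null-Rescue, 1132 in 3.34Null and 1665 in 2.6Null (log2 difference 3.52 ± 0.53, adjusted p = 0.000988), and Lamp1 at 167 FPKM in 3WT, 180.0 in 3.34Null-Rescue, 1119.9 in 3.34Null and 1242 in 2.6Null (log2 difference 2.76 ± 0.32, adjusted p = 0.000329). Lamp1 was of like height in both null lines. Lamp2, which also serves chaperone-mediated autophagy, was at 28.9 and 44.2 FPKM against 144 and 258, Npc1 at 12 and 8.57 against 26.2 and 30.3 and Laptm4a at 104 and 146 against 168 and 288. Mcoln1 was at 20.03 FPKM in 3WT, 12.3 in 3.34Null-Rescue, 34.3 in 3.34Null and 52 in 2.6Null (log2 difference 1.37 ± 0.36, adjusted p = 0.0134), a call lost without 3WT (adjusted p = 0.0779) or 3.34Null-Rescue (adjusted p = 0.163). Laptm4b was lower, at 80.2 FPKM in 3WT, 49.8 in 3.34Null-Rescue, 23 in 3.34Null and 38.8 in 2.6Null (log2 difference -1.06 ± 0.28, adjusted p = 0.0146). Its log2 difference was -0.72 without 3WT (adjusted p = 0.240) and -0.69 without 3.34Null (adjusted p = 0.0970). Cd68 was not called, at 11.2 FPKM in 3WT, 1.97 in 3.34Null-Rescue, 6.3 in 3.34Null and 11 in 2.6Null.

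In the pump, the V0 and accessory genes were 1.83 (Atp6v0d1) to 6.81 (Atp6v0c) times the present mean, and the V1 genes 1.03 (Atp6v1b2) to 2.03 (Atp6v1e1) times. Atp6v0c was at 50.9 FPKM in 3WT, 38.9 in 3.34Null-Rescue, 219.5 in 3.34Null and 391 in 2.6Null, and Atp6ap1 at 26.3 FPKM in 3WT, 33.2 in 3.34Null-Rescue, 159 in 3.34Null and 224 in 2.6Null, each without overlap. Atp6v0a1, Atp6v0b, Atp6v0e and Atp6ap2, the prorenin receptor, were called as well. By contrast, Atp6v1b2 was at 119.7 FPKM in 3WT, 88.5 in 3.34Null-Rescue, 104 in 3.34Null and 111 in 2.6Null and Atp6v1f at 171 FPKM in 3WT, 131 in 3.34Null-Rescue, 130.5 in 3.34Null and 183 in 2.6Null, with overlapping groups. Of V1, Atp6v1a, Atp6v1e1 and Atp6v1h were called. All 6 genes with TCACGTGA in the promoter windows printed above were among the 34 called higher: Atp6v1a at 48.1 and 44 against 80.9 and 90.7 FPKM, Atp6v0d1 at 110.2 and 82.7 against 159.7 and 194, and Atp6v0e at 63 and 73.3 against 257 and 325, besides Ctsa, Ctsd and Mcoln1. Members without that motif, such as Cd63, were called too. Since 34 of all 45 members were called higher, these 6 calls do not set the genes with the motif apart.

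Tfeb itself was at 9.57 FPKM in 3WT, 7.74 in 3.34Null-Rescue, 6.23 in 3.34Null and 4.63 in 2.6Null. Both null values lay below both present values, and the log2 difference of -0.59 ± 0.36, adjusted p = 0.215 was not called. Over all members, 15 were called without 3WT and 22 without 3.34Null-Rescue, each of which leaves 1 present library, where 8.14% and 22.1% of all genes were called.

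**Figure D3:**
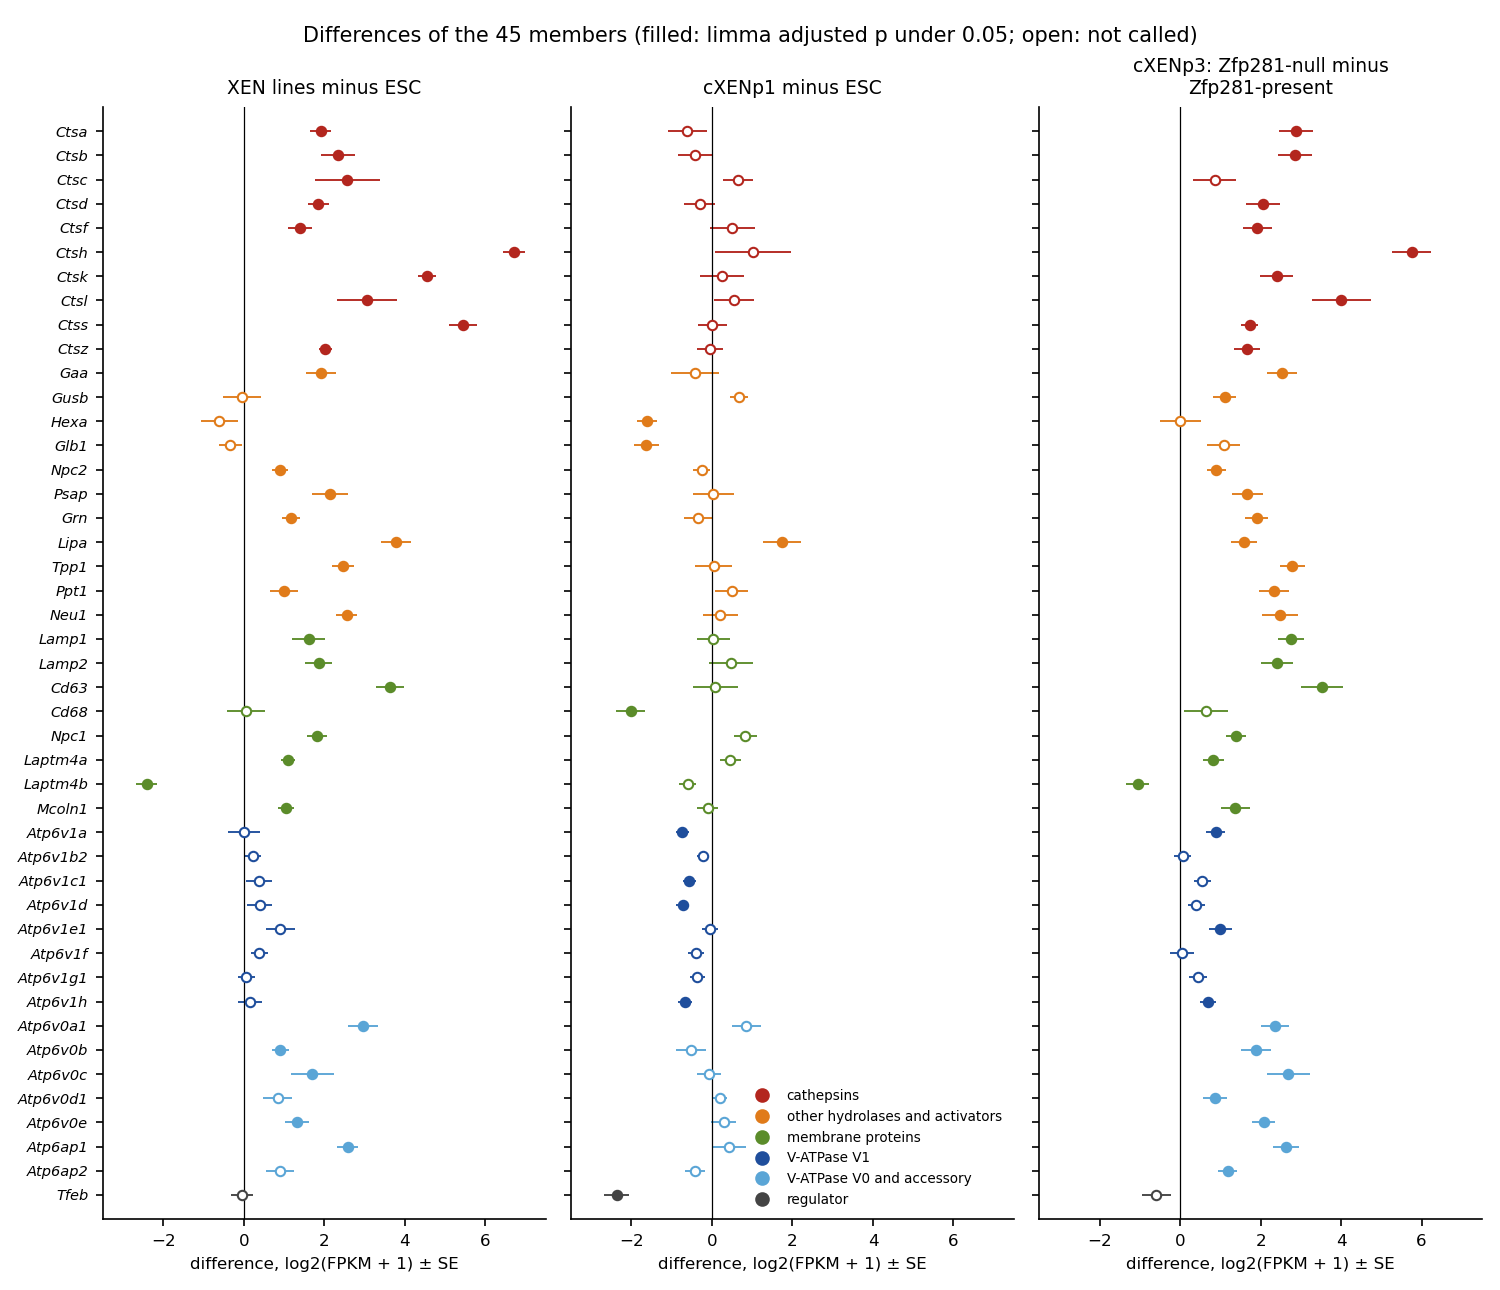
Difference in mean log2(FPKM + 1) with its SE for the 45 members in 3 comparisons, coloured by gene group; filled points passed a limma adjusted p under 0.05 and open points did not. The cathepsins and V0 genes lie to the right in the left and right panels, where 29 and 34 members were called higher, and the V1 genes lie between -0.01 and 0.91 in the left panel, none of them called, and below 0 in the middle panel. In the left and right panels Ctsk and Ctss met the filter on low values only through the higher group. They are a description there, which leaves 27 and 32 called higher.

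The XEN comparison and the cXENp3 comparison contrast different libraries. The cXENp3 fit also takes part of its spread from the ESC libraries of the XEN comparison, so the fits are not fully separate. Of the 29 members called higher in the XEN lines, 28 (96.6%) were also called higher in the null lines at cXENp3, and these were 82.4% of the 34 called there. Ctsk and Ctss are among the 28, and without them the overlap was 26, or 96.3% of 27 and 81.2% of 32. Over the 12248 genes tested in both, the shares were 72.4% and 66.5%. Ctsc was the member on the XEN list alone. Of the 6 members on the cXENp3 list alone, 3 were V1 subunits (Atp6v1a, Atp6v1e1 and Atp6v1h), and the others were Gusb, Atp6v0d1 and Atp6ap2.

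Change between passages was then compared within each Zfp281 state. From cXENp1 to cXENp3 the null lines raised 28 members and lowered none, where 12.5% of genes rose and 8.8% fell. The present lines raised 2, Tfeb and Ctss, and lowered none, where 4.91% rose and 6.01% fell. Ctss passed the filter on low values only through cXENp3 libraries, so its rise is a description, which leaves Tfeb. In the null lines the median change was 1.15 for the members and -0.01 for all genes, and in the present lines 0.18 and 0.01. The changes share their cXENp3 libraries with the comparison just described.

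Ctsk and Ctss met the filter only through the null cXENp3 libraries, so 26 rose without them. In the null lines, 6 of the 8 other cathepsins, 8 of 11 hydrolases and activators, 4 of 8 membrane proteins, 3 of 8 V1 and 5 of 7 V0 and accessory genes rose. Ctsh climbed from 4.39 to 105 FPKM in 3.34Null and from 16.2 to 161 in 2.6Null (log2 change 3.77 ± 0.49, adjusted p = 0.000776). Cd63 climbed from 96.1 to 1132 and from 269 to 1665 (log2 change 3.08 ± 0.53, adjusted p = 0.00332). Both lines took part in each rise. Lamp1 changed by 1.66 ± 0.32, adjusted p = 0.00614. Ctsl changed by 2.77 ± 0.74, adjusted p = 0.0252, a call that was lost without 3WT (adjusted p = 0.0885), without 3.34Null-Rescue (0.0883) and with every gene above 0 in the fit (0.0509). Mcoln1 (0.90 ± 0.36, adjusted p = 0.102) and Tfeb (0.96 ± 0.36, adjusted p = 0.0894) were not called. With the line as a block, Mcoln1 was (adjusted p = 0.0449), and without 2.6Null, Tfeb was, with a log2 change of 1.54 (adjusted p = 0.0478). Fewer members were called as changed without 3WT or without 3.34Null-Rescue, and the share of all genes called then is not given here.

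In the present lines, Tfeb rose from 1.49 to 9.57 FPKM in 3WT and from 0.6 to 7.74 in 3.34Null-Rescue (log2 change 2.27 ± 0.36, adjusted p = 0.00477), which brought it back towards its ESC level. Ctss went from 0 in both to 0.65 FPKM in 3WT and 1.21 in 3.34Null-Rescue, values near the 1 FPKM of the filter. Among the course libraries it reached 1 FPKM only at cXENp3, so this is a description with no test. The Tfeb call did not hold without 3WT or without 3.34Null-Rescue, each of which leaves a single present library. Ctsh (-0.36 ± 0.49, adjusted p = 0.668), Lamp1 (-0.45 ± 0.32, adjusted p = 0.382) and Mcoln1 (0.15 ± 0.36, adjusted p = 0.82) were not called. The number called was 4 with the line as a block, 0 without 3WT or without 3.34Null-Rescue, and 7 without either null line.

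The difference between these changes was tested as an interaction. The change was greater in the null lines for 13 members and smaller for none, where 7.19% of genes had a greater and 4.26% a smaller one. These were Ctsa, Ctsf, Ctsh, Ctsk and Ctss, then Gaa, Grn, Lipa, Ppt1 and Tpp1, and Lamp1, Lamp2 and Atp6ap1, with no V1 subunit. Ctsk and Ctss again met the filter only through the null cXENp3 libraries, and 11 remain without them. The largest differences in log2 change were those of Ctsh (4.13 ± 0.69, adjusted p = 0.00898), Ctsf (3.04 ± 0.51, adjusted p = 0.00866) and Lamp2 (2.55 ± 0.57, adjusted p = 0.0239), and that of Lamp1 was 2.11 ± 0.45, adjusted p = 0.0219. Ctsf shows it with a crossing, at 18 FPKM in 3WT, 13.5 in 3.34Null-Rescue, 7.15 in 3.34Null and 6.15 in 2.6Null at cXENp1, where the null lines were lower, and at 11 FPKM in 3WT, 10.9 in 3.34Null-Rescue, 28 in 3.34Null and 69.7 in 2.6Null at cXENp3, where they were higher. Mcoln1 (0.75 ± 0.51, adjusted p = 0.329) and Tfeb (-1.31 ± 0.51, adjusted p = 0.112) were not called, though without 3.34Null Tfeb was, at -1.90 (adjusted p = 0.0441). Without 3WT no member was called and without 3.34Null-Rescue 1 was; Ctsh then had adjusted p = 0.235 and 0.0733. The count was 18 with the line as a block and 20 without 2.6Null.

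**Figure D4:**
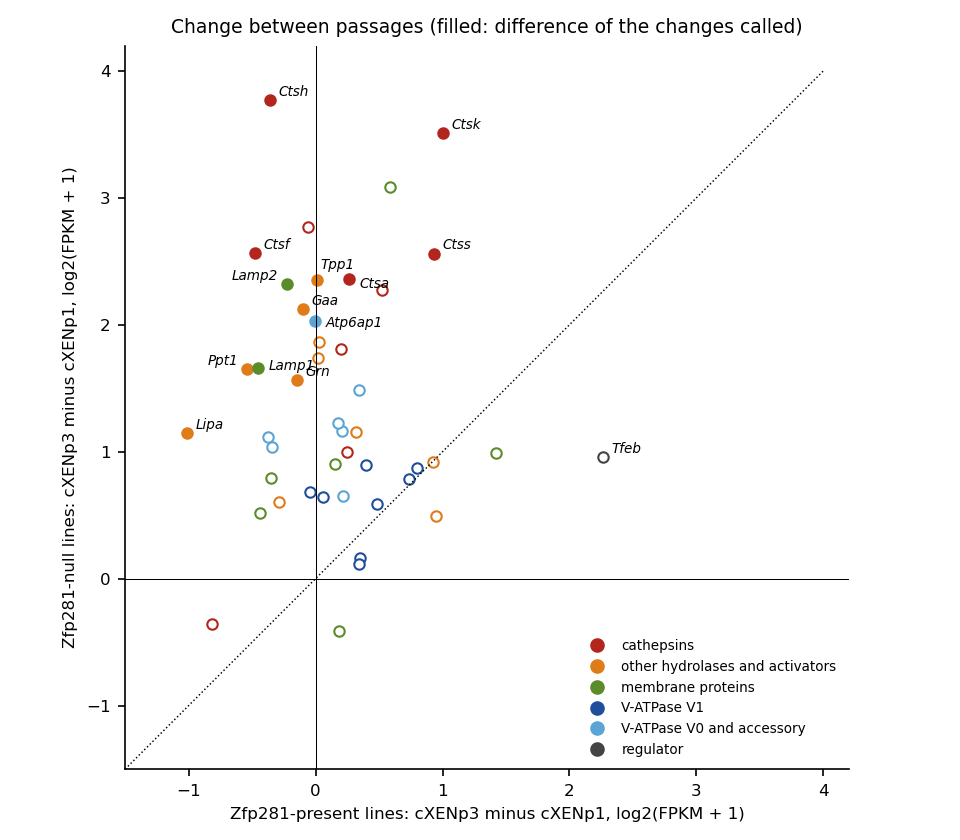
Change from cXENp1 to cXENp3 in mean log2(FPKM + 1) of each member in the Zfp281-present (horizontal) and Zfp281-null lines (vertical); filled points are the 13 members whose changes differed at a limma adjusted p under 0.05, and the dotted line marks equal change. Of the 13, Ctsk and Ctss met the filter on low values only through the null cXENp3 libraries and are a description, which leaves 11. Most members lie above the dotted line, the blue V1 points lie near it, and Tfeb lies to the right of it.

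The null lines at cXENp3 were set beside the established XEN lines. Only Ctss was called, lower in the null lines, at 5.77 and 4.9 FPKM against 67.2 and 28.1 (log2 difference -2.82 ± 0.34, adjusted p = 0.00146), where 2.64% of 13386 genes were called higher and 1.48% lower. At an unadjusted p under 0.05, 10 of 45 members passed, against 2740 of all 13386 genes. The macrophage marker sum moved with Ctss here too, at 8.32 and 12.7 FPKM in the null lines against 88.2 and 32.9, and its part was not tested. The median log2 difference was 0.03 over the members and 0.04 over all genes. Ctsh (-1.10 ± 0.46, adjusted p = 0.211), Lamp1 (0.41 ± 0.31, adjusted p = 0.49), Mcoln1 (0.05 ± 0.34, adjusted p = 0.958) and Tfeb (-1.0 ± 0.35, adjusted p = 0.14) missed the threshold, which does not show that they are alike. As a percentage of the XEN mean, the null mean was 47.3 for Ctsh, 17.4 for Ctsc, 43.2 for Lipa and 46.1 for Tfeb, and it was 210.0 for Ctsl, 262 for Ppt1, 241 for Gusb and 237 for Laptm4b. More members were called without 3.34Null or without XENB1, each of which leaves a single library in a group. The share of all genes called then is not given here.

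The 2 null lines did not reach these levels alike. Member by member, the median ratio of 2.6Null to 3.34Null was 1.10 as ESCs (2.6Null higher for 27 of 44), 1.75 at cXENp1 (42 of 45) and 1.52 at cXENp3 (40 of 45). The same ratios over all genes are not given here, so a shift of the whole 2.6Null library is not set apart. At cXENp3, 2.6Null was the highest of the 4 lines for 37 of 45 members, against 33.6% of all genes. Ctsl, at 1083 and 3957 FPKM in 3.34Null and 2.6Null, and Ctsd, at 396 and 868, stood furthest apart in absolute terms among the cathepsins. Atp6v1h ran the other way at 98.5 and 79.8, and Atp6ap2 was level at 93.8 and 93.6. These are 2 libraries, so the difference between the lines has no replicate check.

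A wider list of 88 further lysosomal genes, covering hydrolases, membrane and sorting proteins, tissue-restricted pump subunits and regulators, was examined in the same fits. In the XEN lines 42 of 81 tested were called higher and 3 lower, where 22.2% and 19.7% of all genes were, with a median of 0.93 against 1.31 for the 45 members. Lgmn, the asparaginyl endopeptidase that cleaves cathepsins into their mature form, was at 26.7 to 37.3 FPKM in ESCs and 514 and 658 in the XEN lines (log2 difference 4.27 ± 0.22, adjusted p = 1.66e-05). Tfec, a relative of Tfeb, was at 0 to 0.439 and 13.4 and 23.7. Tfec, Arsb and Atp6v0d2 met the filter only through the XEN libraries and Abca2 only through the ESC libraries, which leaves 39 higher and 2 lower. Those 2 were Rragb (-2.67 ± 0.50, adjusted p = 0.00421) and Mtor (-1.04 ± 0.26, adjusted p = 0.0146), which belong to the amino acid sensing machinery on the lysosome.

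At cXENp3, 44 of the 81 were called higher in the null lines and 2 lower, where 22.9% and 19% of all genes were. Tfec was listed at 0 in both present lines and at 10.6 and 14.4 FPKM in the null lines, and 2.6Null alone had reached 12.6 at cXENp1. It met the filter only through null libraries, so 43 were called higher without it. Naglu, which degrades heparan sulfate, was at 1.94 FPKM in 3WT, 2.75 in 3.34Null-Rescue, 28.4 in 3.34Null and 54.3 in 2.6Null (3.60 ± 0.36, adjusted p = 0.000177). Lgmn was at 29 FPKM in 3WT, 25.4 in 3.34Null-Rescue, 346 in 3.34Null and 322 in 2.6Null (3.57 ± 0.81, adjusted p = 0.00694), and in 2.6Null it had already reached 335 at cXENp1. Tfec and Lgmn in 2.6Null were thus near their cXENp3 level by cXENp1. Rragb (-1.89 ± 0.47, adjusted p = 0.0104) and Lamtor2 (-0.62 ± 0.21, adjusted p = 0.0372), a scaffold subunit for mTOR on the lysosome, were lower in the null lines.

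Across the other comparisons the wider list moved as follows. At cXENp1 against ESC 5 rose and 8 fell, against 14.7% and 13.8% of all genes, led by Arsb (1.92 ± 0.51, adjusted p = 0.0221), Sort1 (1.89 ± 0.22, adjusted p = 0.00066) and Rragd (1.60 ± 0.49, adjusted p = 0.0374) and by Laptm5 (-3.24 ± 0.45, adjusted p = 0.00153), Mitf (-1.47 ± 0.28, adjusted p = 0.00557) and Manba (-1.45 ± 0.31, adjusted p = 0.00977). As ESCs the null lines were higher for Dnase2a, the acid DNase, at 4.27 FPKM in 3WT, 5.25 in 3.34Null-Rescue, 15.1 in 3.34Null and 27 in 2.6Null (1.89 ± 0.31, adjusted p = 0.0242), and lower for Rragd, at 12.6 FPKM in 3WT, 7.82 in 3.34Null-Rescue, 1.91 in 3.34Null and 0.446 in 2.6Null (-2.42 ± 0.46, adjusted p = 0.0358). These were the 1 gene called higher and the 1 called lower of 81 tested, where 1.05% and 0.917% of all genes were. At cXENp1 none was called between null and present lines. There 10 of 81 had an unadjusted p under 0.05, against 1486 of all 13191 genes. Between passages 34 rose and 2 fell in the null lines, against 12.5% and 8.8% of all genes, and 3 rose and 5 fell in the present lines, against 4.91% and 6.01%. Rises in the null lines included those of Aga (2.81 ± 0.40, adjusted p = 0.00127) and the cathepsin inhibitor Cst3 (2.39 ± 0.54, adjusted p = 0.0132), with Abca2 (-1.24 ± 0.38, adjusted p = 0.0424) and Sort1 (-1.20 ± 0.35, adjusted p = 0.0356) falling. In the present lines the largest were Laptm5 (2.26 ± 0.54, adjusted p = 0.0261), Manba (1.84 ± 0.43, adjusted p = 0.0251) and Lamtor2 (0.93 ± 0.21, adjusted p = 0.0209), with Rragd (-1.86 ± 0.46, adjusted p = 0.0306), Lmbrd1 (-1.30 ± 0.24, adjusted p = 0.0095) and Sort1 (-1.25 ± 0.35, adjusted p = 0.0483) falling. The change differed by Zfp281 state for 18, all greater in the null lines, against 7.19% of all genes with a greater change, among them Naglu (3.03 ± 0.51, adjusted p = 0.00898) and Sgsh (2.53 ± 0.37, adjusted p = 0.00557), which both degrade heparan sulfate. Of 82 tested against the XEN lines, Arsb (1.63 ± 0.32, adjusted p = 0.0182) and Fuca1 (1.31 ± 0.31, adjusted p = 0.0382) were higher in the null lines, where 2.64% of all genes were called higher. Atp6v0d2, a pump subunit of osteoclasts and macrophages, was at 3.39 FPKM in XENB1 and 1.47 in XEN5, the only libraries through which it met the filter.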

How the data were processed

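Values are the FPKM that the authors deposited for 23174 loci with XLOC identifiers, 1 column per library. Per the submitters' processing notes, STAR 2.5.3, Cufflinks 2.1.1 and the mm9 build were used; which step each served, and the annotation, are not given in the sources used here. Libraries were polyA with paired 150 bp reads on a HiSeq4000, per the labels' protocols. No pair of columns held identical values, and depth, hence counting error, is unknown.

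All fits used log2(FPKM + 1), a scale on which changes of low genes are understated. Loci with at least 1 FPKM in at least 2 of the fitted libraries were kept, and linear models were fitted over all of them with limma 3.58.1 in R 4.3.3 (lmFit, eBayes with trend). The call threshold was 0.05 on p-values adjusted by the Benjamini-Hochberg method across every gene fitted in the comparison. XEN against ESC used these 6 libraries. cXENp1 against ESC was fitted on all 12 course libraries, blocked by line. Null against present lines, passages and their interaction used 6 groups of 2 with a shared spread, and the XEN lines joined that fit for the last comparison. The line pairs libraries across stages because they come from the same cell line. Deviations of the same line correlated between stages at 0.07 to 0.34 for the null lines and -0.21 to 0.13 for the present lines.

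The members were taken by name, and they and the gene lists were drawn up with earlier results of these data known. Genes that met the filter only through the group where they are high are described without a test. Fitted values are printed for Ctsh, Lamp1, Mcoln1 and Tfeb and for up to 4 called members with the largest rise and 4 with the largest fall per comparison, and of the wider list for up to 3 each way; some genes this rule names are not reported here. Lists of 5 ESC, 7 XEN, 9 macrophage (8 found) and 8 fibroblast markers serve for description. The fits were tested on simulated data. Alternatives covered the pseudocount (0.1), the filter, quantile normalization, the line block, the description code and leaving out each line. Promoters were searched on both strands, and 30 of 37 were also found in transcript orientation in GENCODE transcripts.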

Additional observations from a re-analysis of the deposited data

Results flagged for a closer look

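The change from cXENp1 to cXENp3 differed between Zfp281-null and Zfp281-present lines by limma's interaction term. It was greater in the null lines for 13 of the 45 members and smaller for 0, and the largest differences in log2 change were 4.13 for Ctsh, 3.04 for Ctsf, 2.55 for Lamp2 and 2.5 for Ctsk. Ctsk and Ctss met the filter only through the null cXENp3 libraries, so the Ctsk value is a description, and 11 members remain without them. Each group holds 2 libraries per passage. Of all genes tested, 7.19% were called with a greater change and 4.26% with a smaller one. At an unadjusted p under 0.05, 26 members passed, against 4296 of all 13191 genes. Without 3WT the count of members called was 0, with 15 at an unadjusted p under 0.05 and 5 of all genes called, and without 3.34Null-Rescue it was 1.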

How the results depend on the processing

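Counts below are members called of 45, in limma. For them, and for most leave-out counts above, the share of all genes called is not given. They do not show whether calls changed for the members alone or for all genes. Leaving out each line in turn gave 18 to 33 for XEN lines against ESC (30 with all libraries), 3 to 7 for cXENp1 against ESC (9), and, for null against present lines, 0 to 13 as ESCs (0), 0 to 15 at cXENp1 (0) and 15 to 37 at cXENp3 (35). Between passages it gave 15 to 31 in the null lines (28), 0 to 7 in the present lines (2) and 0 to 20 for the interaction (13), and against the XEN lines it gave 1 to 7 (1). Where this leaves 1 library in a group, that library is assumed to vary like the other groups. With no line block, the count at cXENp1 against ESC was 5, and with the description code as a term it was 0. The line as a block gave 4 in the present lines between passages and 18 for the interaction. It also added the Mcoln1 call in the null lines and changed no other call among the genes with printed fits. Null cXENp3 against XEN lines gave 2 with a pseudocount of 0.1 and 3 with quantile normalization, which also shifted the median of all genes at cXENp3 from 0.01 to -0.10.

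Signs changed only for values that were not called. Leaving out lines moved the log2 difference of Tfeb from -0.16 to 0.049 in XEN lines against ESC and from -0.38 to 0.23 between null and present ESCs. Lamp1 moved from -0.12 to 0.25 at cXENp1 against ESC, and Mcoln1 from -0.085 to 0.39 in the present lines between passages and from -0.24 to 0.35 against the XEN lines. With the description code as a term, Mcoln1 was 0.61 at cXENp1 against ESC. Of the printed fits under these alternatives, 409 kept their direction and call, 37 lost the call, 6 gained it and 9 changed sign; the cause was not tested. Depth is unknown, so the precision of low values such as Ctsk and Ctss in ESCs cannot be stated.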
